A study of Saccharomyces cerevisiae with 15 samples.

Results

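XRN1 encodes the main cytoplasmic 5'-to-3' exonuclease of budding yeast (Saccharomyces cerevisiae), and its loss was followed here in cells with the histone variant H2A.Z, without it, and without the enzyme that deposits it. The 4 libraries in which XRN1 was deleted were set against 5 libraries with XRN1 and UPF1 and a normal PRP43 gene, 9 of the 15 libraries of the series. The xrn1-deleted libraries were xrn1 deletion replicates 1 and 2, 1 library of the htz1/xrn1 double deletion and 1 library of the swr1/xrn1 double deletion. The libraries with XRN1 were wild type replicates 1 and 3, htz1 deletion replicates 1 and 2, and 1 swr1 deletion library. H2A.Z state (HTZ1 and SWR1 present, htz1 deleted, swr1 deleted) was a term of the fit, so each xrn1-deleted library was compared with its own parent genotype. All strains were haploid, of the BY4741/2 background, and carried his-, leu- and ura- markers. Cells were grown in rich glucose medium to mid-log phase, and RNA was extracted with hot phenol and depleted of ribosomal RNA before sequencing. The study made libraries from 11 genotypes, and its title names a role of H2A.Z in splicing. The labels do not state whether replicates were grown separately. The p-values therefore speak of the scatter among these libraries, part of which may be technical.

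Most yeast mRNAs are shortened at the poly(A) tail, lose their cap to the Dcp1-Dcp2 enzyme and are then digested from the 5' end by Xrn1, while the exosome digests RNA from the 3' end. Xrn1 also digests targets of nonsense-mediated decay after their decapping, some unspliced pre-mRNAs and many noncoding transcripts, and its nuclear relative Rat1 trims and degrades RNA in the nucleus. H2A.Z (gene HTZ1) replaces the histone H2A beside promoters, where the SWR1 remodelling complex inserts it.

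The targeted gene followed the labels. XRN1 (YGL173C, chromosome VII, 175527 to 180113, build sacCer3) was at 0.180 and 0.290 RPKM in xrn1 1 and 2, 0.253 in htz1 xrn1 and 0.147 in swr1 xrn1, against 175 and 144 RPKM in wild type 1 and 3, 164 and 155 in htz1 1 and 2 and 158 in swr1. RPKM is a read number divided by gene length and by library size, so it is a share of the library, and the amount of RNA per cell was not measured. Every deleted library lay far below every library with XRN1. The neighbour BUD13 averaged 40.98 ± 3.81 RPKM in xrn1-deleted libraries and 13.8 ± 1.72 RPKM in those with XRN1 (SD, n = 4 and 5). NUP49, on the other side, averaged 50.8 ± 14.3 RPKM in xrn1-deleted libraries and 25.9 ± 7.49 RPKM in those with XRN1. HTZ1 was at most 0.273 RPKM in the 3 htz1-deleted libraries and at least 104.5 in the other 6, and SWR1 was at most 0.0972 RPKM in the 2 swr1-deleted libraries and at least 23.0 in the other 7.

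The values implied 20282080 to 52087596 reads per xrn1-deleted library and 14984490 to 40402444 per library with XRN1. Reading frames inside the ribosomal DNA repeat took 0.0190 to 12.2% of the summed RPKM in xrn1-deleted libraries and 0.398 to 21.3% in those with XRN1, with the high values in swr1 xrn1, htz1 1 and swr1. Mating type was mixed: STE2, the receptor of MATa cells, was at 13.7 RPKM in swr1 xrn1, 4.63 in wild type 1 and 2.24 in swr1, and at 358 to 804 RPKM in the other 6. MET17 RNA was nearly absent from xrn1 1, swr1 xrn1 and htz1 2, at no more than 0.302 RPKM. LYS2 RNA was at 78.7 RPKM in xrn1 1 and 44.4 in htz1 2, and at no more than 0.177 RPKM in the other 7. HIS3 RNA was at 101.6 to 146.5 RPKM in xrn1-deleted libraries and 69.6 to 134 RPKM in those with XRN1. The strains are labelled his-, which does not say how much of HIS3 is missing. The part of these differences in the results below was not tested beyond fits that carry them as a term, which are given with the other alternatives.

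The RPKM of most genes was higher in xrn1-deleted libraries, and the range of RNA levels was narrower. The median gene of those tested stood at 64.4, 64.6, 61.8 and 62.5 RPKM in xrn1 1, xrn1 2, htz1 xrn1 and swr1 xrn1, against 34.8, 26.3, 31.3, 24.5 and 27.9 RPKM in wild type 1, wild type 3, htz1 1, htz1 2 and swr1. All 4 xrn1-deleted libraries lay above all 5 libraries with XRN1. The SD of log2(RPKM + 1) over genes was 1.58 to 1.75 in xrn1-deleted libraries and 1.96 to 2.15 in those with XRN1. The 100 most abundant entries held 26.2 to 34.1% of the summed RPKM in xrn1-deleted libraries and 42.5 to 54.6% in those with XRN1. As deposited, the low end of the range stood higher and the high end lower, while the median stood higher as well. Set against each library's own median, the low end overlapped between the 2 groups of libraries and the high end did not. The gene at the 5th percentile had 4.91 to 8.27 RPKM in xrn1-deleted libraries and 1.59 to 3.38 RPKM in those with XRN1, while the gene at the 95th percentile had 349 to 411 RPKM in xrn1-deleted libraries and 454 to 485 RPKM in those with XRN1. Spearman's rho across genes was 0.884 to 0.948 (median 0.933) over the 6 pairs of xrn1-deleted libraries and 0.937 to 0.976 (median 0.968) over the 10 pairs with XRN1. It was 0.843 to 0.893 (median 0.867) over the 20 pairs of one of each, a range that overlaps that of the xrn1-deleted pairs.

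**Figure D1:**
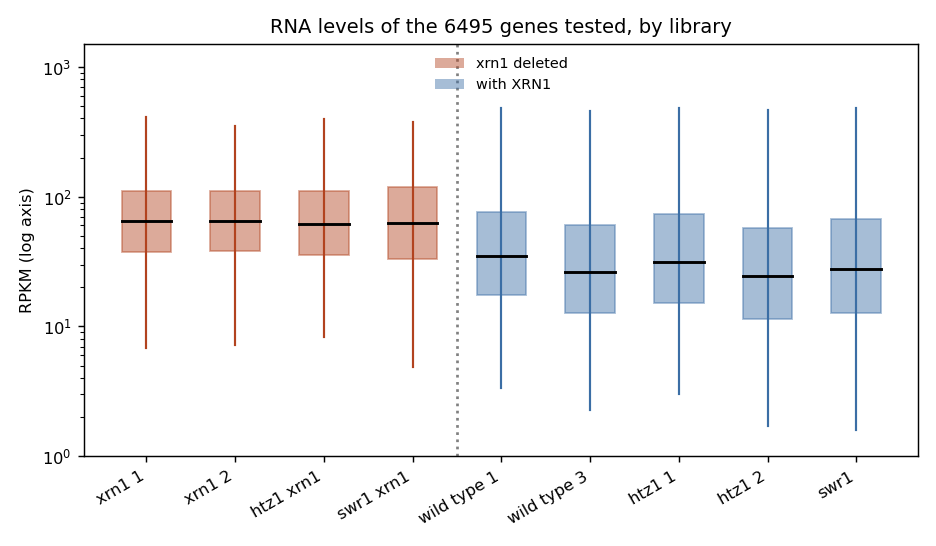
RPKM of the 6495 genes tested in each library on a log axis, with the 4 xrn1-deleted libraries left of the 5 with XRN1; boxes run from the 25th to the 75th percentile, black lines mark the median and thin lines run from the 5th to the 95th percentile. The 4 xrn1-deleted medians lie between 61.8 and 64.6 RPKM, above the 24.5 to 34.8 RPKM of the libraries with XRN1.

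Of 6495 genes, 4813 (74.1%) were called higher and 467 (7.19%) lower in xrn1-deleted libraries by limma on log2(RPKM + 1), at a Benjamini-Hochberg adjusted p under 0.05. The median change of all genes was 0.99 on the log2 scale, and after scaling, which gave all libraries one median log ratio, 2019 genes (31.1%) were called higher and 1883 (29.0%) lower, so that 51.7% of the calls were rises in place of 91.2%. Which of these scales holds per cell was not measured, and fewer cells and less RNA per cell cannot be told apart. All 2019 genes called higher after scaling were also called higher as deposited, and all 467 called lower as deposited were also called lower after scaling. Below, a gene "rose" or "fell" when it was called in that direction on both scales (31.1% and 7.19% of all genes tested). A further 440 genes were called higher as deposited and lower after scaling, and 239 were called on neither scale. In 4107 genes (63.2%) all 4 xrn1-deleted libraries lay above all 5 with XRN1, and in 334 (5.14%) all 4 lay below. A change "relative to the median" is the log2 change minus 0.99, and every fold change is on the log2(RPKM + 1) scale, which understates changes of weakly expressed genes.

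The change followed the abundance of the RNA. Genes were ordered by their mean RPKM in the 6 libraries outside the comparison, which carry XRN1 with upf1 deletions or the prp43 DAmP allele and share no library with it. In 10 equal groups (deciles), decile 1, up to 10.4 RPKM, had a median log2 change of 1.23, and decile 2, up to 16.9 RPKM, had 1.46. The median change was 1.18 in decile 5, 0.64 in decile 8 and 0.29 in decile 9. It was -0.48 in decile 10, from 190.8 RPKM upwards. In decile 10, 10.3% of genes were called higher and 57.5% lower as deposited, whereas in decile 2, 95.1% were called higher and 0.308% lower. After scaling, 89.5% of decile 10 were called lower. The order was alike in the 3 H2A.Z states: decile 10 stood at -1.41, -1.47 and -1.55 relative to each state's own median with HTZ1 and SWR1 present, htz1 deleted and swr1 deleted.

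**Figure D2:**
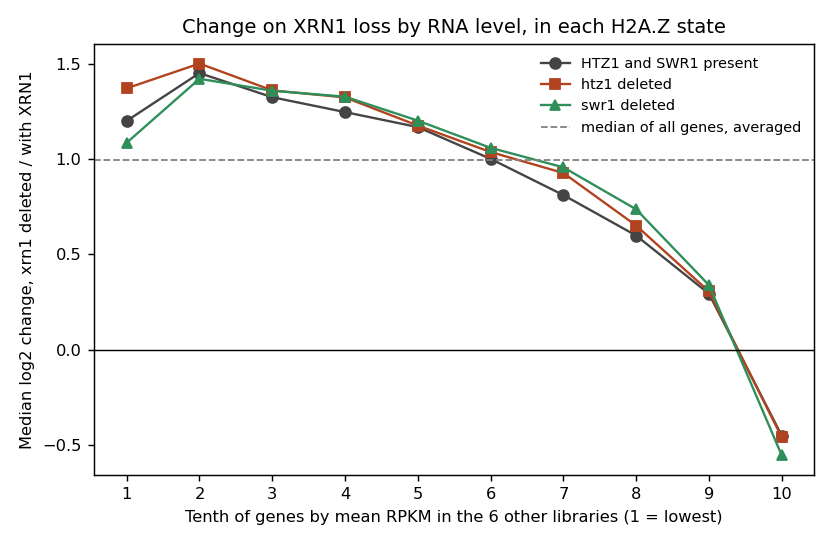
Median log2 change (xrn1 deleted over with XRN1) for each decile of the 6495 genes, ordered on the horizontal axis by mean RPKM in the 6 libraries outside the comparison, with 1 line per H2A.Z state and a dashed line at the median of all genes, 0.99. The 3 lines run together, from between 1.09 and 1.37 in decile 1 to between -0.56 and -0.45 in decile 10.

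Among the most abundant mRNAs, those of sugar breakdown were lower. Genes of glycolysis and fermentation took 3.08 to 4.66% of the summed RPKM in xrn1-deleted libraries and 6.29 to 10.5% in those with XRN1. ADH1 (YOL086C, chromosome XV, 159548 to 160594), the alcohol dehydrogenase that makes ethanol, was at 1425 and 1627 RPKM in xrn1 1 and 2, 2065 in htz1 xrn1 and 1317 in swr1 xrn1, against 6185 and 7693 in wild type 1 and 3, 5200 and 9118 in htz1 1 and 2 and 5984 in swr1. Every xrn1-deleted library lay below every library with XRN1, and ADH1 fell by 2.04 ± 0.20 on the log2 scale (SE; adjusted p = 1.61e-05), a change of -3.04 relative to the median. The enolase gene ENO2 averaged 2889 ± 667 RPKM in xrn1-deleted libraries and 9760 ± 1982 in those with XRN1 (SD, n = 4 and 5; log2 -1.72 ± 0.20). The pyruvate kinase gene CDC19 averaged 2669 ± 260 RPKM in xrn1-deleted libraries and 7589 ± 1072 in those with XRN1 (log2 -1.51 ± 0.16). Of the 20 glycolysis and fermentation genes that passed the filter on low values (of 21), 16 fell and none rose, with a median of -2.02 relative to all genes. The other 4 were called higher as deposited and were not called after scaling. Among them HXK1, the hexokinase isoform that glucose represses, was at 959 ± 259 RPKM in xrn1-deleted libraries and 336 ± 191 in those with XRN1, called higher as deposited (adjusted p = 0.000852) and not after scaling (adjusted p = 0.0562).

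Most ribosomal protein genes fell. Ribosomal protein genes took 10.1 to 15.4% of the summed RPKM in xrn1-deleted libraries and 13.6 to 20.4% in those with XRN1. Of 139 such genes 117 fell, 1 rose, 1 was called in opposite directions on the 2 scales and 20 did not pass on both scales, with a median of -1.72 relative to all genes. Decile 10, which holds the median level of ribosomal protein, glycolysis, translation factor and core histone genes, had a median of -1.47 relative to all genes, and list and decile medians in the following are relative to all genes too. RPP0, a protein of the ribosomal stalk, averaged 1103 ± 160 RPKM in xrn1-deleted libraries and 2886 ± 394 in those with XRN1 (SD, n = 4 and 5; log2 -1.39 ± 0.16, adjusted p = 3.84e-05). ASC1, a protein of the small subunit, averaged 794 RPKM in xrn1-deleted libraries and 1971 RPKM in those with XRN1. RPL22B was the one member that rose. It was at 513 and 418 RPKM in xrn1 1 and 2, 368 in htz1 xrn1 and 416 in swr1 xrn1, against 108 and 91.5 in wild type 1 and 3, 84.8 and 73.6 in htz1 1 and 2 and 64.4 in swr1, a log2 change of 2.31 ± 0.14 (adjusted p = 3.69e-06). All its xrn1-deleted libraries lay above all those with XRN1, while its paralog RPL22A, which makes nearly the same protein from a far more abundant mRNA, averaged 720.1 and 906 RPKM in xrn1-deleted libraries and those with XRN1 and fell (log2 -0.36 ± 0.15, adjusted p = 0.0434). The RPL22A call was lost without any 1 of xrn1 2, htz1 xrn1, swr1 xrn1, wild type 3, htz1 1, htz1 2 or swr1, with adjusted p between 0.05 and 0.165 by limma.

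Of 34 translation initiation and elongation factor genes 13 fell, none rose and 5 were called in opposite directions on the 2 scales, with a median of -1.21, above that of decile 10. TEF2, one of the identical pair of genes for elongation factor 1 alpha, averaged 7429 ± 882 RPKM in xrn1-deleted libraries and 19567 ± 3664 in those with XRN1 (log2 -1.38 ± 0.19). TEF1 and TEF2, like EFT1 and EFT2 for elongation factor 2, are near-identical in sequence, so their reads cannot be assigned to one copy with certainty. Ribosome biogenesis genes had a median of -0.73 relative to all genes, beside -0.35 for decile 8, which holds their median level. As deposited 32 of 121 were called higher and 5 lower, and 1 was called higher and 80 lower after scaling. NOP19, a small-subunit assembly factor, was the member that rose (log2 1.28 ± 0.16). Core histone genes had a median of -1.16: HTA2, HTA1 and HHT1 fell, CSE4, the centromeric variant of histone H3, rose (log2 1.64 ± 0.16), and the other 6 of 10 did not pass on both scales. Without swr1 xrn1 or swr1 the calls of HTA1 and HHT1 were lost, with adjusted p of 0.0659 and 0.0651 for HTA1 and 0.0511 and 0.0505 for HHT1. Late sterol synthesis genes had a median of -1.01, with 2 of 17 falling and none rising, beside -0.71 for decile 9, which holds their median level.

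The largest falls after XRN1 itself and the ribosomal DNA entry YLR154W-E, whose groups overlapped and whose call was lost without htz1 xrn1 (adjusted p = 0.1), were those of small nucleolar RNAs (snoRNAs), the short nuclear RNAs that guide the chemical modification and cleavage of ribosomal RNA. Box C/D snoRNAs carry the C and D boxes near their ends and mostly guide methylation, and box H/ACA snoRNAs end in an ACA trinucleotide and guide pseudouridylation. Shown are 3 box C/D snoRNAs and 1 box H/ACA snoRNA from the 12 largest falls, as examples of each class, and snR68, the snoRNA with the highest log2 change. Capitals mark the C box TGATGA and the D box CTGA in the box C/D snoRNAs and the ACA in snR35, in RefSeq sequence of the sacCer3 build, written 5' to 3' as DNA.
snR128 (chrX:139566-139691, minus strand): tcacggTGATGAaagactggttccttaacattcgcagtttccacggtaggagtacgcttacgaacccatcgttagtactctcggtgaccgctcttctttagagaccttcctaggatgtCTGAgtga
snR13 (chrIV:1402919-1403042, plus strand): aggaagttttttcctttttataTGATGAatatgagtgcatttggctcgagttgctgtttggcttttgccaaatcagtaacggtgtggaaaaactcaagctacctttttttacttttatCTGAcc
snR60 (chrX:349130-349233, minus strand): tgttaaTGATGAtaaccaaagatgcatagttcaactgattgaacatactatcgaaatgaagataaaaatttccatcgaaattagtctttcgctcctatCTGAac
snR35 (chrXV:759326-759529, minus strand): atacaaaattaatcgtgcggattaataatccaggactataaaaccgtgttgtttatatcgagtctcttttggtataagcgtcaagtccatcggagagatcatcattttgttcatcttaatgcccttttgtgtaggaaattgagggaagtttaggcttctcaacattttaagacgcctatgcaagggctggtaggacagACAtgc
snR68 (chrIX:97111-97246, plus strand): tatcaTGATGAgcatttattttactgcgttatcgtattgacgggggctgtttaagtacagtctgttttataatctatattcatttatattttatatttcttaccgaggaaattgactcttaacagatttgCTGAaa

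Of the 76 snoRNAs 63 fell and none rose, with a median of -2.65 relative to all genes. Decile 9 of genes by level, which holds the median snoRNA level of 175.5 RPKM, had a median of -0.71. The 63 that fell had a median level of 485 RPKM, in decile 10, where the median was -1.47. snR128, the U14 RNA needed for the cleavage of the ribosomal RNA precursor, was at 290.3 and 24.6 RPKM in xrn1 1 and 2, 216 in htz1 xrn1 and 94.0 in swr1 xrn1, against 422 and 2443 RPKM in wild type 1 and 3, 1347 and 2442 in htz1 1 and 2 and 1796 in swr1. The xrn1-deleted libraries lay below all the others, with xrn1 2 lowest, and snR128 fell by 3.56 ± 0.71 (SE; adjusted p = 0.00111). snR190, which lies beside it on the same strand, was at 7396, 5096, 3782 and 1648 RPKM in xrn1 1, xrn1 2, htz1 xrn1 and swr1 xrn1, against 12347, 20851, 12862, 24737 and 16511 RPKM in wild type 1, wild type 3, htz1 1, htz1 2 and swr1 (log2 -2.10 ± 0.35). The order within the xrn1-deleted libraries thus differed between these neighbours.

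By the annotation all 29 box H/ACA snoRNAs fell, with a median of -1.93 on the deposited log2 scale, and 32 of 45 box C/D snoRNAs fell, with a median of -1.21. The U3 genes snR17a and snR17b, for which the annotation used names no class, fell too. The 13 that were not called on both scales were box C/D RNAs of 87 to 136 bases with a median of 9 RPKM in the 6 other libraries, and the 63 that fell had a median of 485 RPKM there. After scaling 75 of the 76 snoRNAs were called lower, and the 13 lay between -1.90 and -0.84 relative to the median. The smaller count of box C/D falls thus came from the deposited scale. snR68 was among the 13, at 17.1, 14.5, 20.9 and 14.4 RPKM in xrn1-deleted libraries and 6.41 to 40.6 RPKM in those with XRN1, with overlapping groups (log2 0.16 ± 0.45, adjusted p = 0.75, and -0.16 without htz1 2). The 8 snoRNAs that lie inside introns of host genes all fell (median log2 -1.70). How well RNAs this short were kept by the library preparation was not measured. Other stable noncoding RNAs, named after their values were seen, stood lower too: NME1, the RNA of RNase MRP, averaged 672 and 2172 RPKM in xrn1-deleted libraries and those with XRN1 and fell (log2 -1.75 ± 0.27). SCR1, the RNA of the signal recognition particle, averaged 29677 RPKM in xrn1-deleted libraries and 62252 in those with XRN1 and fell (log2 -1.02 ± 0.24). RPR1, the RNA of RNase P, averaged 1085 RPKM in xrn1-deleted libraries and 2007 in those with XRN1 and fell (log2 -0.90 ± 0.20).

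Several long noncoding RNAs rose. Of the 12 in the annotation 9 passed the filter, 6 rose, none fell and HRA1 was called in opposite directions on the 2 scales. The deposited call of HRA1 was lost without xrn1 1, swr1 xrn1, wild type 3 or swr1 (adjusted p between 0.0686 and 0.113). SRG1 is transcribed across the promoter of SER3, a gene of serine synthesis, and its transcription is known to keep SER3 low in rich medium. The annotated SRG1 (chromosome V, 322212 to 322762, plus strand) covers all 300 bases of the window from 250 bases before to 50 bases after the SER3 start, which is shown because both RNAs rose. The start codon of SER3 is in capitals, in RefSeq sequence of the sacCer3 build.
SER3 window (chrV:322436-322735, plus strand): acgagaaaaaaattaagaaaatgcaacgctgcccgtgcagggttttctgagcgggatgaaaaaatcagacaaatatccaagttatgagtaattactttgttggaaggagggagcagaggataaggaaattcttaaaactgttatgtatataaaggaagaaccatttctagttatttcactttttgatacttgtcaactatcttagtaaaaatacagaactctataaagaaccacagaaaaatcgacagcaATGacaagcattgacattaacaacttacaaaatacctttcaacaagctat

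SRG1 was at 445 and 351 RPKM in xrn1 1 and 2, 425 in htz1 xrn1 and 411 in swr1 xrn1, against 69.3 and 54.8 in wild type 1 and 3, 85.2 and 62.6 in htz1 1 and 2 and 50.5 in swr1 (log2 2.70 ± 0.16, adjusted p = 3.56e-06). SER3 itself was at 344, 300.1, 347 and 339 RPKM in xrn1 1, xrn1 2, htz1 xrn1 and swr1 xrn1, against 42.3, 25.6, 55.2, 24.5 and 18.7 RPKM in wild type 1, wild type 3, htz1 1, htz1 2 and swr1 (log2 3.43 ± 0.27, adjusted p = 6.91e-06). In both genes all xrn1-deleted libraries lay above all the others, and the 2 entries overlap at the start of SER3. ICR1 and PWR1, a pair of RNAs from opposite strands upstream of the flocculin gene FLO11, rose by log2 2.51 ± 0.20 and 2.39 ± 0.20. FLO11, named after its values were seen, averaged 13.8 ± 9.99 RPKM in xrn1-deleted libraries and 1.58 ± 0.74 in those with XRN1, with 2.58 in xrn1 1 inside the range of the libraries with XRN1. RME2, antisense to the meiotic methyltransferase gene IME4, averaged 127 and 22.9 RPKM in xrn1-deleted libraries and those with XRN1, and IME4 averaged 128 RPKM in xrn1-deleted libraries and 23.9 in those with XRN1. RME3 and the meiotic gene ZIP2 that it overlaps likewise had near-equal values (log2 1.94 ± 0.20 and 1.90 ± 0.20). Whether the counting used strand is not stated, so RNA of a gene and of its antisense partner cannot be told apart in these values. IRT1, which is transcribed through the promoter of the meiotic regulator IME1, rose (log2 1.63 ± 0.16), while IME1 was called higher as deposited (log2 0.92 ± 0.20) and lay at -0.07 relative to the median.

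The 12 largest rises were led by the cyclin gene PCL1. PCL1 (YNL289W, chromosome XIV, 87897 to 88736), a G1 cyclin of the Pho85 kinase, was at 434 and 606 RPKM in xrn1 1 and 2, 740.1 in htz1 xrn1 and 721 in swr1 xrn1, against 37.3 and 37.0 in wild type 1 and 3, 42.3 and 44.3 in htz1 1 and 2 and 36.6 in swr1 (log2 3.97 ± 0.15, adjusted p = 7.68e-07). CLB6 (YGR109C, chromosome VII, 705359 to 706501), an S-phase cyclin, was at 65.3 and 63.5 RPKM in xrn1 1 and 2, 68.1 in htz1 xrn1 and 56.9 in swr1 xrn1, against 2.80 and 5.22 in wild type 1 and 3, 3.98 and 4.89 in htz1 1 and 2 and 2.47 in swr1 (log2 3.80 ± 0.18, adjusted p = 2.3e-06). Neither gene had overlapping groups. YOX1, a homeodomain repressor of genes expressed between mitosis and G1, rose with them, at 168 ± 51.4 RPKM in xrn1-deleted libraries and 17.5 ± 2.60 in those with XRN1 (log2 3.19 ± 0.18), and so did its paralog YHP1 (log2 3.14 ± 0.17) and ACM1, an inhibitor of the anaphase-promoting complex (log2 2.99 ± 0.11). KDX1, a protein of the cell wall stress pathway related to MAP kinases, averaged 111 ± 7.43 RPKM in xrn1-deleted libraries and 8.31 ± 2.73 in those with XRN1 (log2 3.63 ± 0.24).

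DAL7 and DAL5, which serve the use of allantoin as a nitrogen source, rose by log2 3.34 ± 0.14 and 3.17 ± 0.17. DAL7, a long-known substrate of nonsense-mediated decay, was at 96.4, 77.6, 96.7 and 71.9 RPKM in xrn1 1, xrn1 2, htz1 xrn1 and swr1 xrn1, against 9.42, 7.34, 7.61, 7.33 and 6.36 RPKM in wild type 1, wild type 3, htz1 1, htz1 2 and swr1. RIM4, an RNA-binding protein of meiosis that is little expressed in dividing cells, averaged 67.1 ± 23.3 RPKM in xrn1-deleted libraries and 6.38 ± 1.87 in those with XRN1 (log2 3.25 ± 0.21). The other 4 among the 12, YJL213W, YML122C, YHL015W-A and YDR274C, rose by log2 3.80, 3.33, 3.22 and 3.14, and in all 12 the groups did not overlap. YJL213W, a reading frame related to hydrolases, varied most within the xrn1-deleted libraries, at 69.2 and 126 RPKM in xrn1 1 and 2, 417 in htz1 xrn1 and 252 in swr1 xrn1, against 7.23 to 17.2 RPKM in those with XRN1.

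**Figure D3:**
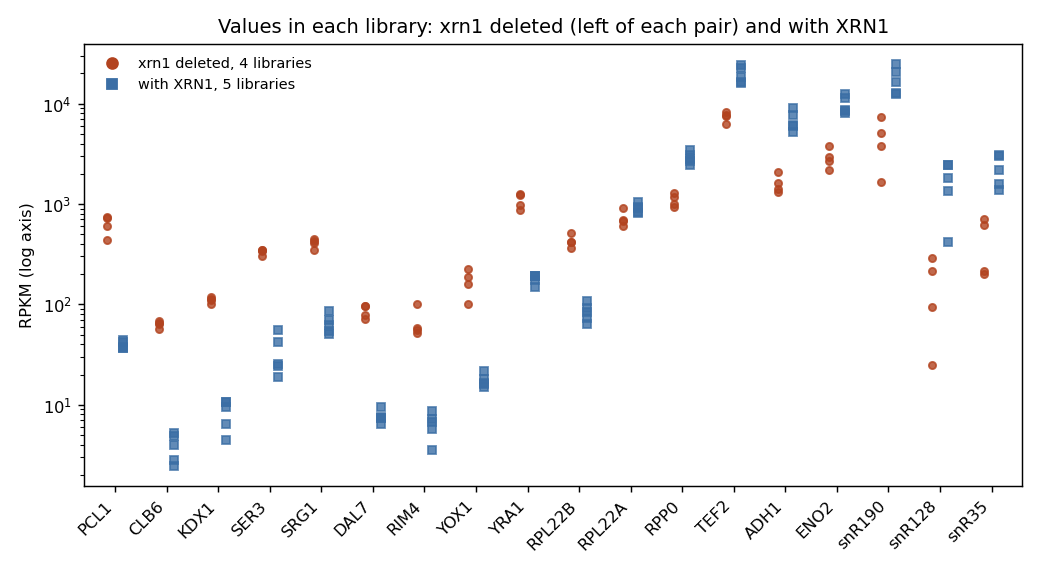
RPKM (log axis) of 18 RNAs in each library, with the 4 xrn1-deleted libraries (circles) left of the 5 libraries with XRN1 (squares) for each gene. The cell cycle, serine and meiotic genes on the left lie higher in every xrn1-deleted library, and the ribosomal protein, elongation factor, glycolytic and snoRNA genes on the right lie lower, except that 1 xrn1-deleted value of RPL22A falls inside the range of the libraries with XRN1.

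The cyclins rose as a list. Of 23 cyclin genes 20 rose, none fell, and PCL5, PCL7 and CLG1 did not pass on both scales, with a median of 0.80 relative to all genes. Decile 5 of genes by level, which holds the median cyclin at 30.2 RPKM, had a median of 0.18. CLB5, the partner of CLB6 in S phase, rose by log2 2.28 ± 0.15, and the mitotic cyclin CLB2 averaged 192 ± 17.2 RPKM in xrn1-deleted libraries and 38.9 ± 2.20 in those with XRN1 (log2 2.27 ± 0.12, adjusted p = 2.89e-06). The G1 cyclins CLN1, CLN2 and CLN3, the mitotic cyclins CLB1 to CLB4 and the cyclins of transcription kinases CTK2, SSN8, CCL1 and BUR2 were also among the genes that rose. Of the 18 genes of ribonucleotide reduction and DNA damage 11 rose, led by PLM2 (log2 2.16 ± 0.19) and the checkpoint kinase gene DUN1 (log2 1.90 ± 0.15), and 2 fell, RNR2 and RNR4, which encode the small subunit of ribonucleotide reductase. The call of RNR4 was lost without xrn1 2, htz1 xrn1, swr1 xrn1, wild type 1 or swr1 (adjusted p between 0.0517 and 0.0656). Of 24 microtubule and karyogamy genes 15 rose, led by KAR5 (log2 2.43 ± 0.20) and CIK1 (log2 2.42 ± 0.14), and 2 fell, the tubulin genes TUB1 and TUB2. These 2 lists had medians of 0.56 and 0.37, beside 0.47 and 0.29 for deciles 2 and 4, which hold their median levels.

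Lists of genes that are kept low in glucose or in dividing cells held many rises, beside the 31.1% of all genes that rose. Of 32 glucose-repressed carbon genes 21 rose and 1, the alcohol dehydrogenase gene ADH2, fell, with a median of 0.78 and a median level of 10.4 RPKM, in decile 1, where the median was 0.24. That level lies at the upper edge of decile 1, and decile 2 had a median of 0.47. After scaling 65.6% of the list were called higher, beside 33.85% of decile 1 and 58.4% of decile 2. JEN1, the lactate transporter, averaged 33.5 and 5.25 RPKM in xrn1-deleted libraries and those with XRN1 (log2 2.42 ± 0.23). ADR1, the activator of glucose-repressed genes, averaged 82.5 RPKM in xrn1-deleted libraries and 17.2 in those with XRN1 (log2 2.31 ± 0.22). Of the 18 hexose transporter genes that passed the filter (of 20) 10 rose, led by HXT17 (log2 3.11 ± 0.42) and the glycerol transporter STL1 (log2 3.07 ± 0.21), and 3 fell, HXT1, HXT2 and HXT3, which carry glucose in growing cells. The hexose transporter median was 0.62, beside 0.47 for decile 2, which holds their median level. The call of HXT2 was lost without xrn1 1, xrn1 2, swr1 xrn1, wild type 1, htz1 1 or swr1 (adjusted p between 0.0611 and 0.116). HXT13, HXT15, HXT16 and HXT17 are close in sequence, so their reads are uncertain. NRG1, a repressor of glucose-repressed genes, rose as well (log2 2.81 ± 0.26).

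Of 62 meiosis and sporulation genes in the deposited values 54 passed the filter, 30 rose and none fell, with a median of 0.59, beside 0.24 for decile 1, which holds their median level, and the 8 that did not pass were below a mean of 1 RPKM over the 15 libraries. RED1, of the axis of meiotic chromosomes, averaged 43.4 and 5.90 RPKM in xrn1-deleted libraries and those with XRN1 (log2 2.73 ± 0.25). The meiotic kinase gene IME2 averaged 28.4 RPKM in xrn1-deleted libraries and 5.10 in those with XRN1 (log2 2.42 ± 0.36). Of 40 autophagy genes 23 rose, led by ATG41 (log2 2.66 ± 0.28). The autophagy median of 0.38 lay near the 0.35 of decile 3, which holds the list's median level, and 57.5% of its genes were called higher after scaling, beside 54.5% of that decile. Of 31 iron regulon genes 17 rose, led by the reductase genes FRE2 (log2 2.88 ± 0.17) and FRE3 (log2 2.72 ± 0.26). Of 30 methionine and sulfate genes 15 rose, led by MET1 (log2 2.65 ± 0.16), and 3 fell. Both lists had a median of 0.44, beside 0.05 for decile 6, which holds their median levels. MET17, one of the methionine genes, is missing from the RNA of some of these strains.

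Substrates and factors of nonsense-mediated decay rose in part. Of 12 natural targets of nonsense-mediated decay in the table all 12 were called higher as deposited, 9 rose and none fell, with a median of 0.63, beside 0.18 for decile 5, which holds their median level. That level includes the upf1 deletions. DAL7, STN1, EST2 and EST3, the largest rises of the list, averaged 69.1, 49.9, 24.6 and 70.8 RPKM there. In the libraries with XRN1 of the comparison they averaged 7.61, 8.55, 4.45 and 21.9 RPKM. Decile 5 may thus be too high for this list, and deciles 1 and 2 had medians of 0.24 and 0.47. STN1, which caps telomeres, was at 79.3, 80.2, 52.3 and 66.3 RPKM in xrn1 1, xrn1 2, htz1 xrn1 and swr1 xrn1, against 12.2, 9.43, 7.91, 6.38 and 6.82 RPKM in wild type 1, wild type 3, htz1 1, htz1 2 and swr1 (log2 2.84 ± 0.15). EST2, the catalytic subunit of telomerase, rose by log2 2.51 ± 0.18. Of the 5 genes for factors of that pathway 4 rose, led by NMD4 (log2 2.15 ± 0.15), and UPF1, listed as NAM7, was called higher as deposited and lay at -0.06 relative to the median.

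Of 24 genes of 5'-to-3' decay and decapping other than XRN1 itself, 8 rose, 1 fell (SBP1, a repressor of translation, log2 -0.57), and PAT1 and LSM3, which promote decapping, were called higher as deposited and lower after scaling. The 8 make 33.3% of the list, beside 31.1% of all genes, and 8 of the list were called lower after scaling. The list median was -0.17, beside -0.12 for decile 7, which holds its median level. EDC1, an enhancer of decapping, was at 223 and 207 RPKM in xrn1 1 and 2, 247 in htz1 xrn1 and 324 in swr1 xrn1, against 38.0 and 36.4 in wild type 1 and 3, 41.3 and 33.7 in htz1 1 and 2 and 44.6 in swr1 (log2 2.64 ± 0.12, adjusted p = 2.18e-06). DCP2, the decapping enzyme, averaged 165 ± 12.2 RPKM in xrn1-deleted libraries and 50.4 ± 8.43 in those with XRN1 (log2 1.71 ± 0.15), and DXO1, an exonuclease with decapping activity, rose by log2 1.77 ± 0.19. RAT1, the nuclear exonuclease related to Xrn1, averaged 94.2 ± 16.7 RPKM in xrn1-deleted libraries and 67.8 ± 16.7 in those with XRN1, was not called as deposited (log2 0.43 ± 0.19, adjusted p = 0.0572) and was called lower after scaling. Genes of the exosome, Ski and TRAMP complexes, which act from the 3' end, held 2 that rose (SKI7 and AIR2), none that fell and 6 called in opposite directions on the 2 scales, of 22. In the deadenylation list MOT2, a subunit of the Ccr4-Not complex, rose (log2 1.83 ± 0.20), and PAB1, the poly(A)-binding protein, fell (log2 -1.13 ± 0.13), at 387 ± 63.3 RPKM in xrn1-deleted libraries and 845 ± 35.2 in those with XRN1.

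Other lists held rises and falls side by side. Apart from seripauperins, the shares of these lists that rose were near or below the 31.1% of all genes, and 7.19% of all genes fell. Of 30 chaperone genes 9 (30%) rose, led by CUR1 (log2 2.78 ± 0.34) and the mitochondrial HSP78 (log2 2.68 ± 0.19). Another 6 fell, among them SSB1 and SSB2, whose proteins bind new chains on the ribosome. RPN4, the activator of proteasome genes, averaged 298 ± 58.6 RPKM in xrn1-deleted libraries and 50.7 ± 15.2 in those with XRN1 (log2 2.59 ± 0.21) and was the member of the 35 proteasome genes that rose, while 15 others were called higher as deposited and lower after scaling. Mitochondrial ribosomal protein genes lay at 0.00 relative to the median, with 16 of 70 rising (22.9%) and none falling. Decile 6, which holds their median level, had a median of 0.05. The cytoplasmic ones lay at -1.72, beside -1.47 for decile 10, which holds theirs. Of 33 general stress genes 9 (27.3%) rose and 2 fell, and of 20 trehalose and glycogen genes 7 (35%) rose. Of 39 respiratory chain genes 2 (5.13%) rose and 1 fell. Of 19 citrate cycle genes 2 (10.5%) rose and 3 fell, and of 24 phosphate regulon genes 5 (20.8%) rose. Of the 50 amino acid genes controlled by Gcn4 that passed the filter (of 51) 5 (10%) rose and 9 fell. Of 24 seripauperin genes, a family of near-identical wall proteins, 12 passed the filter and 7 (58.3%) rose. After scaling 33.85% of decile 1, which holds their median level, were called higher. Of 15 hypoxic wall and sterol-uptake genes 5 (33.3%) rose and 1 fell. Of the 14 genes for NRG repressors and RNA polymerase II subunits 3 (21.4%) rose, NRG1, NRG2 and RPB4, and 3 were called in opposite directions on the 2 scales.

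Gene structure and place were compared in the same way. Of 269 intron-containing genes 45 rose and 84 fell, but outside the ribosomal proteins 44 rose and 10 fell of 179, with a median of -0.06. Ribosomal protein genes with introns had a median of -1.67 (n = 90) and those without introns one of -1.83 (n = 49). YRA1, whose pre-mRNA is exported unspliced and degraded in the cytoplasm as part of its autoregulation, was at 1270 and 982 RPKM in xrn1 1 and 2, 1233 in htz1 xrn1 and 866 in swr1 xrn1, against 193 in both wild type 1 and 3, 191 and 173 in htz1 1 and 2 and 149.8 in swr1 (log2 2.60 ± 0.13, adjusted p = 2.3e-06). The RPKM values are scaled by the whole gene, introns included, so spliced and unspliced RNA of YRA1 and RPL22B are not separated. Of 244 genes within 20 kb of a chromosome end 220 passed the filter, 96 rose and 2 fell, with a median of 0.45 and a median level of 15.3 RPKM, inside the range of decile 2, where the median was 0.47. Of the 97 genes that overlap a gene on the other strand 32 rose and none fell (median -0.08). Of 5 equal groups by length, the longest protein-coding genes, of 2091 bases or more, had a median of 0.14 relative to all genes. The shortest, up to 627 bases, had one of -0.15.

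Promoters, taken as the 250 bases before and 50 bases after the start codon of 5792 protein-coding genes, were searched on both strands for 9 motifs. The RRPE sequence AAAATTTT, known from promoters of ribosome biogenesis genes, was held by 4.08% of the 1862 promoters of genes that rose, 16.9% of the 354 of genes that fell and 9.24% of all. The PAC sequence GCGATGAG was held by 1.29% of promoters of genes that rose, 2.82% of those that fell and 4.07% of all. The stress element CCCCT was held by 21.4, 19.5 and 22.0% of the same groups, the MBF site ACGCGT of late G1 genes by 3.71, 1.13 and 3.18%, and the Rap1 sequence CACCCA by 6.02, 10.2 and 7.58%. The heat shock element GAANNTTC was held by 12.6, 16.9 and 12.1%, the Gcn4 site TGACTC by 8.38, 11.0 and 8.15%, the URS1 site GGCGGC by 4.62, 5.08 and 5.01% and the proteasome element GGTGGCAAA by 0.591, 0.565 and 1.23%. The median change relative to all genes was -0.494 with RRPE and 0.062 without it, and -0.505 with PAC and 0.040 without it. For the proteasome element it was -0.313 and 0.027, and for the MBF site 0.144 and 0.017. The other motifs differed less. These matches are letters in a window, and no binding was measured.

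The change on XRN1 loss was then taken within each H2A.Z state, in a fit of all 15 libraries with 1 mean per genotype, in which lone libraries were assumed to vary like the replicated ones. With HTZ1 and SWR1 present, 3951 genes (60.8%) were called higher and 269 (4.14%) lower in the xrn1 deletion against the wild type. In cells without HTZ1, 3511 (54.1%) were called higher and 165 (2.54%) lower in htz1 xrn1 against htz1, and in cells without SWR1, 2844 (43.8%) were called higher and 180 (2.77%) lower in swr1 xrn1 against swr1. The median changes were 0.96, 1.00 and 0.99, and the smaller counts stand beside fewer libraries, 2 against 2, 1 against 2 and 1 against 1, so the counts cannot be read as a weaker response. Without wild type 3 the first state had 2519 called higher and 121 lower, without xrn1 2 it had 173 lower, and without htz1 2 the second had 2280 higher and 80 lower. 2582 genes were called higher and 109 lower in every state, and none was called in every state with differing directions. Across the 6495 genes, Pearson's r was 0.84 between the changes with HTZ1 and SWR1 present and without HTZ1, 0.84 between those with HTZ1 and SWR1 present and without SWR1, and 0.83 between those without HTZ1 and without SWR1. These 3 comparisons share no library, and genes are not independent replicates.

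**Figure D4:**
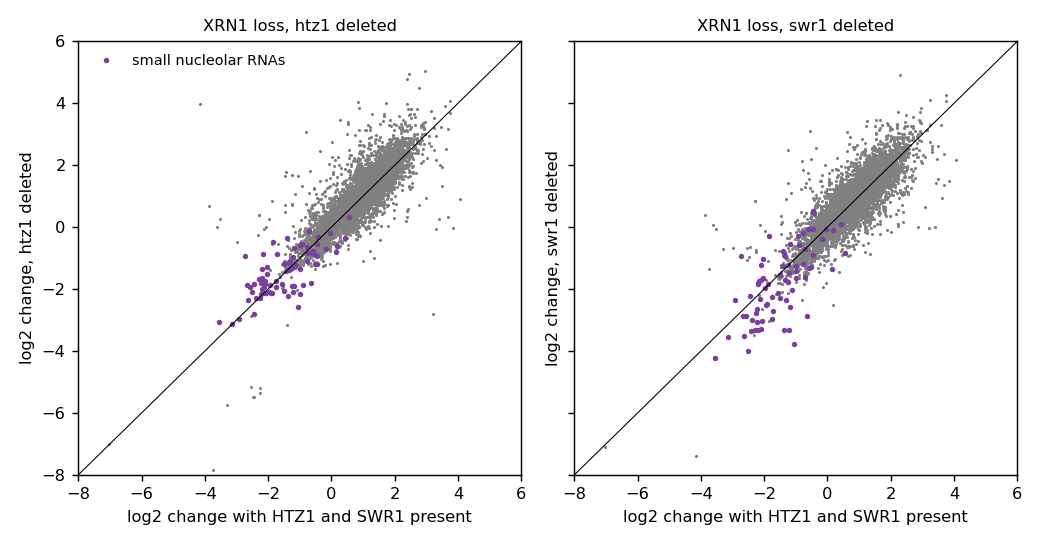
Log2 change of each of 6495 genes on XRN1 loss (xrn1 deleted over with XRN1) without HTZ1 (left) or without SWR1 (right), against the change with HTZ1 and SWR1 present; the line marks equal change and snoRNAs are in purple. Most genes lie along the line in both panels, with Pearson's r of 0.84 each, and the snoRNAs lie at the low end of both.

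PCL1, ACM1, DAL7 and RIM4 were among the 5 genes with the smallest p in more than 1 state. PCL1 changed by log2 3.75 ± 0.28 with HTZ1 and SWR1 present, 4.06 ± 0.34 without HTZ1 and 4.26 ± 0.39 without SWR1, and ACM1 by 2.96 ± 0.21, 3.00 ± 0.25 and 3.05 ± 0.29 in the same states. ADH1 changed by -2.18 ± 0.31 with HTZ1 and SWR1 present, -1.74 ± 0.38 without HTZ1 and -2.18 ± 0.43 without SWR1. snR190 stood at -3.32 ± 0.55 without SWR1, beside -1.39 with HTZ1 and SWR1 present and -2.24 without HTZ1. XRN1 itself changed by -7.02, -7.00 and -7.12.

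No gene was called for a difference of the xrn1 change between states by limma (0.0% for htz1 deleted minus HTZ1 and SWR1 present and 0.0% for swr1 deleted minus HTZ1 and SWR1 present). An unadjusted p under 0.05 was held by 153 and 96 of the 6495 genes tested. In both cases that is a smaller share than the 0.05 that p-values would give without any difference. Several of the genes with the smallest p stood apart in 1 library. HUG1, a DNA damage gene, was at 42.5 RPKM in htz1 xrn1 and between 1.99 and 16.0 RPKM in the other 8 libraries (difference of log2 changes 3.12 ± 0.59, adjusted p = 1 by limma). DAN1, a cell wall gene of anaerobic growth, was at 99.9 RPKM in htz1 xrn1, against at most 13.5 RPKM elsewhere (difference 3.87 ± 0.80). IMD2, of guanine nucleotide synthesis, was at 84.7 RPKM there, against at most 29.8 RPKM elsewhere (difference 3.22 ± 0.71). YRO2, a stress gene, was higher in xrn1 1 and 2, at 370.1 and 196 RPKM, than in the other 7 libraries, at 48.5 to 158 RPKM, with differences of -2.32 ± 0.48 without HTZ1 and -2.19 ± 0.53 without SWR1. GIT1 and COS5 had negative differences without HTZ1, HSP30 and YNL146C-A had negative differences without SWR1, and MIN10, FUS1 and LSO1 had positive ones without SWR1. None passed the adjustment. Without wild type 3, which leaves only the MATalpha library as wild type, 17 and 15 genes were called for the 2 differences, among them DAN1 for the first and the mating-type genes STE2 and MF(ALPHA)1 for both.

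Medians of some lists lay close together in the 3 states and those of others lay apart. Cyclins stood at 0.73, 0.74 and 0.88 relative to each state's median with HTZ1 and SWR1 present, without HTZ1 and without SWR1. In the same order glycolysis stood at -1.94, -2.00 and -1.89, ribosomal proteins at -1.59, -1.75 and -1.86, and snoRNAs at -2.37, -2.48 and -2.72. General stress genes stood at 0.69, 0.12 and -0.03 and chaperones at 0.28, -0.17 and -0.34, both lower without HTZ1 or SWR1. Respiratory chain genes stood at -0.17 with HTZ1 and SWR1 present, -1.001 without HTZ1 and -0.95 without SWR1. Iron regulon genes stood at 0.22, 0.70 and 0.75, and ribosome biogenesis genes at -0.82, -0.76 and -0.42. Farthest apart were phosphate regulon genes, at -0.10, 0.47 and -0.71, hypoxic wall and sterol-uptake genes, at -0.35, 0.71 and 0.45, and seripauperins, of which 12 of 24 passed the filter, at 0.44, 1.41 and 0.47, leaving aside the mating-type and ribosomal DNA lists. Hexose transporters stood at 0.43, 0.94 and 0.09. The states without HTZ1 or SWR1 rest on 1 xrn1-deleted library each, and these list differences were not tested.

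**Figure D5:**
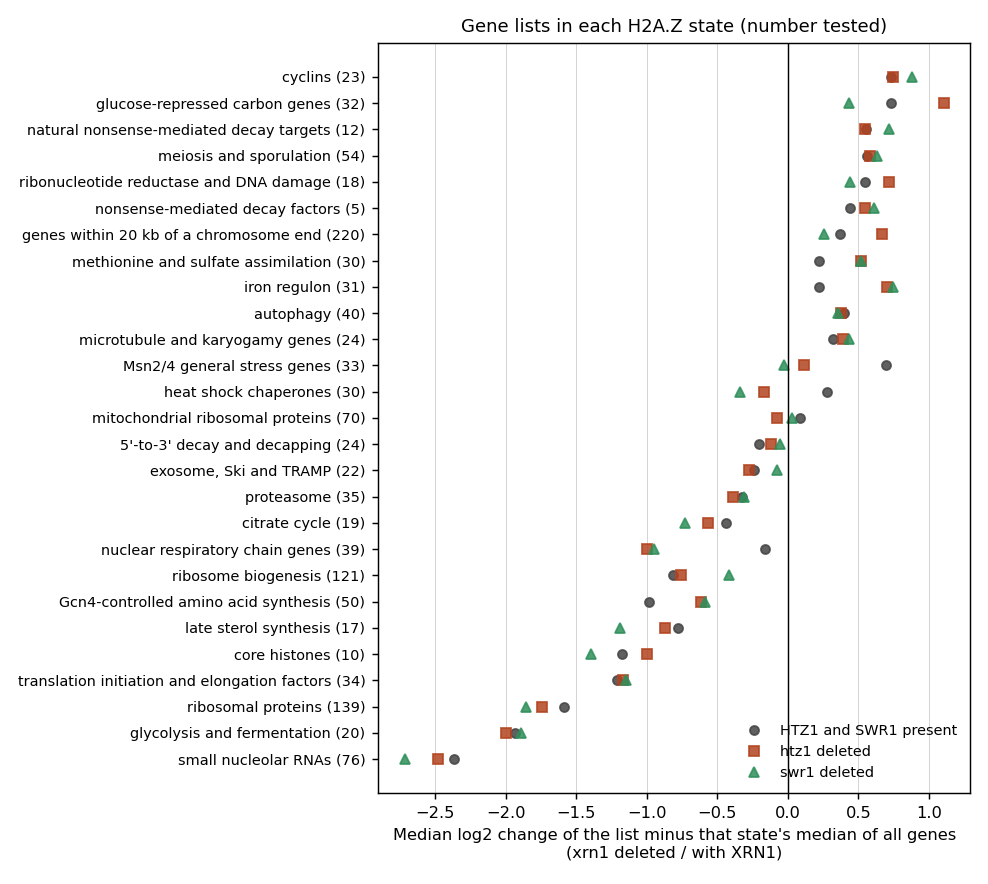
Median log2 change (xrn1 deleted over with XRN1) of 27 gene lists minus the median of all genes in the same H2A.Z state, with the number of genes tested in parentheses and 1 symbol per state. Cyclins and glucose-repressed genes lie to the right of 0 and ribosomal proteins, glycolysis and snoRNAs to the left in all 3 states, and the symbols of general stress and respiratory chain genes lie farther apart.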

How the data were processed

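RNA levels were analysed as deposited, in a table of RPKM values per gene that the authors made from reads of 15 rRNA-depleted libraries. Reads were handled with CASAVA and STAR 2.4.0 and the sacCer3 build, per the submitters' processing notes. For the counter, annotation and strandedness the sources used here give nothing. One column matched no sample and was not used. Groups came from the sample titles.

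The 6495 genes whose mean over the 15 libraries reached 1 RPKM were tested as log2(RPKM + 1) with limma 3.58.1 in R 4.3.3, with H2A.Z state as a term and a trend in the prior variance, at a Benjamini-Hochberg adjusted p under 0.05. The same fit was repeated on values scaled so that all libraries had one median log ratio. Contrasts within states and their differences came from a fit of all 15 libraries with 1 mean per genotype. Genes were annotated from the RefSeq R64 reference, the sacCer3 build, which matched 5986 entries and left 673 unmatched. The members and lists were chosen with earlier results of these data known. Genes to name were drawn from the 12 largest rises and falls, up to 4 called members of each list, and the 5 smallest p values per direction within a state (3 for differences between states without calls). Not every gene of these sets is named. Left out are, for example, snR8 and snR5 among the largest falls and TIR1 and PAU7 with HTZ1 and SWR1 present. Other genes named, such as RPL22A, FLO11, IME1, SCR1 and the list members that moved against their list, were chosen after their values were seen, as was the long noncoding RNA list. Data were simulated for the averaged comparison in 5 sets over 6495 genes. Across the sets they held 330 4-fold, 335 2-fold and 335 1.5-fold changes. The fit recovered 98.5% of 4-fold, 83.0% of 2-fold and 28.4% of 1.5-fold changes and called 0.162% of unchanged genes. Far fewer genes were changed there than the 4813 called higher and 467 called lower as deposited. The rates therefore hold for sparse changes only. How the fit performs when most genes shift, as here, was not tested. Alternatives changed the pseudocount, filter, scaling, prior, libraries and added terms.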

Additional observations from a re-analysis of the deposited data

How the results depend on the processing

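Scaling every library to the same median log ratio moved the counts most: 2019 genes were called higher and 1883 lower in the averaged comparison, 1166 and 1189 with HTZ1 and SWR1 present, 899 and 775 without HTZ1, and 555 and 466 without SWR1, and the median change of all genes was 0.04. On that scale RAT1 stood at -0.52, HRA1 at -0.60, snR68 at -0.80, IME1 at -0.03275, CIT1 at -0.0003484, CYB5 at -0.14, ERG7 at -0.15 and ERG27 at -0.17, against positive values as deposited, as the subtraction of a common shift makes them. snR68 stood between -0.16 and 0.457 with 1 library left out, lowest without htz1 replicate 2.

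With replicate numbers as a replicate block, 3707 genes were called higher and 187 lower in the averaged comparison, and 2414 higher and 72 lower with HTZ1 and SWR1 present. In the averaged fit the lone libraries shared a block level of their own. Deviations of same-numbered samples correlated at -0.273 between xrn1 and htz1, 0.187 between xrn1 and upf1 and 0.129 between htz1 and upf1. These correlations leave out the wild type and cannot settle whether the numbers stand for shared batches. The replicate block could not be fitted for the lone libraries without HTZ1 or SWR1 or for the differences between states.

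Leaving out 1 library at a time gave 4468 to 4866 genes higher and 374 to 494 lower in the averaged comparison, 2519 to 4041 higher and 121 to 280 lower with HTZ1 and SWR1 present, 2280 to 3632 higher and 80 to 192 lower without HTZ1, 2500 to 2949 higher and 158 to 190 lower without SWR1, a median change of 0.93 to 1.06, and 0 to 17 and 0 to 15 genes called for the differences without HTZ1 and without SWR1. With the rDNA share, mating type or MET17 RNA as a term 4656, 4858 and 4830 genes were called higher and 329, 424 and 444 lower, and limma voom, run on reads recovered from the RPKM, called 4442 higher and 419 lower. The depth of each library limits short and weakly expressed genes, and the states without HTZ1 or SWR1 rest on 1 xrn1-deleted library each.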
